A study of Mus musculus with 3 samples.

Results

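A set of 10 genes that respond to low oxygen was followed here across stages, genotypes and single cells: Ndufa4l2, Bnip3, Ddit4, Ankrd37, Ndrg1, Ier3, Bhlhe40, Mgarp, Hilpda and Fam162a. They were chosen for their higher level in mutant cells at embryonic day 9.5 (E9.5), so their difference at that stage is given as a description and not as a finding. They are 10 of 51923 genes in the count matrix, of which 35403 had at least 1 UMI (unique molecular identifier, 1 counted RNA molecule). All 10 passed the filter on low counts that left 20672 genes for testing.

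Cells sense oxygen through prolyl hydroxylases, which mark the HIF transcription factors for destruction by the VHL ligase when oxygen is present. When oxygen falls, HIF-1 and HIF-2 pair with ARNT and raise genes of glycolysis, glucose uptake, mitochondrial turnover and blood vessel growth. Early mouse embryos live at low oxygen before the heart and yolk sac circulation take over, and HIF signalling is needed for their heart and vessels.

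The cells came from C57BL/6 mouse embryos carrying Mesp1-Cre, which recombines in early mesoderm, and the Ai9 red fluorescent reporter. Control embryos had 1 floxed allele of Wls (Wls fl/+) and mutant embryos had both alleles floxed (Wls fl/fl). Wls encodes a carrier that cells need to secrete Wnt proteins. Controls therefore also lost 1 Wls copy in the Mesp1 lineage, and no embryo without the floxed allele or without Cre enters. Embryos of a pool were tagged with MULTI-seq lipid barcodes, and reporter-positive cells were sorted and sequenced with a droplet method that counts the 3′ ends of RNA. The unit of comparison was the barcode sample, the sum over all cells of 1 run, barcode, stage and genotype, and whether a barcode held 1 embryo is not stated. Run 1 gave all 6 samples of E8.0, 3 of each genotype, and run 2 gave the 3 samples of E8.5, of which 1 was mutant. The 12 samples of E9.5, 6 of each genotype, were spread over 3 runs that each held both.

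Wls itself measured 3.72 to 14.2 CPM (UMIs of a gene scaled to the sample's total) in the 10 mutant samples and 35.9 to 65.4 CPM in the 11 controls of E8.0 to E9.5. The samples held 134457 to 61307782 UMIs. The smallest, the E9.5 control Bar6, has 6 cells, so the control ranges below name it where it is the highest or lowest. One further control sample, of 28 cells and labelled E7.5, had 14.1 CPM of Wls from 7 UMIs, inside the range of the mutants. Primitive red cell markers were found in 60.7% of its cells. The sample entered no comparison of genotypes, and none of the 10 genes was higher there than in the highest other control. Cells of all 3 E8.0 mutants were 98.3% to 99.1% male by their X and Y transcripts, while the 3 controls were 2.16%, 2.34% and 53.1% male. The last of these, Bar29, thus held cells of both sexes and so of more than 1 embryo. Primitive red cell markers, from blood cells that also carry the reporter, were found in 3.04%, 10.1% and 10.46% of cells of the E8.0 mutants and in 6.87% to 28.8% of control cells. At E9.5 these shares were 8.33% to 31.6% and 8.61% to 36%. Across runs, 23 of 14754 cell barcodes occurred more than once; these were kept as separate cells.

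Of the 10 genes, 7 have an entry in the RefSeq promoter table (GRCm38.p6), which gives 250 bases before and 50 after a start site; Hilpda has 2 entries. The letters ACGTG and GCGTG, the core that HIF dimers are known to bind, were searched on both strands, so that CACGT and CACGC also count, and overlapping matches such as those inside CACGTG were counted separately. All 8 windows of the 7 genes held at least 1 match, against 43.8% of all 32851 windows in the table. The 2 Hilpda windows overlap, and the only match of 1 of them lies at a site that the other also holds. As the genes are known to respond to low oxygen, these counts are a description. At least 3 matches were found in 4 of the 8 windows (Bnip3, Ankrd37, Fam162a and 1 Hilpda window), against 8.93% of all windows. The windows of these genes are also rich in CG pairs, with a median of 25 against 7 over all windows and 17 over windows with a match. The stretches below show how the matches lie upstream of the start, outside annotated exons, with matches in capitals and each sequence read 5′ to 3′ on the strand of its gene.

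Bnip3: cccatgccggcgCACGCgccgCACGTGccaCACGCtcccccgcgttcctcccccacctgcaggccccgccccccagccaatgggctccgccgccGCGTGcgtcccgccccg
Ankrd37: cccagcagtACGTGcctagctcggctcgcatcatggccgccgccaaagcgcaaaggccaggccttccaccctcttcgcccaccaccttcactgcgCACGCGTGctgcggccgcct
Fam162a: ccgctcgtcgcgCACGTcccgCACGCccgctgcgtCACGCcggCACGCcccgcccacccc
Ddit4: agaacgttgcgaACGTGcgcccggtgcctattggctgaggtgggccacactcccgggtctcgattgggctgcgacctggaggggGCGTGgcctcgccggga
Ier3: tcccaggaaagaACGTGcactggggcacc
Mgarp: gagcgggtcaggCACGTaacagcgacttc

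The Bnip3 stretch (chr7:138909525-138909635, minus strand) holds 5 matches, 4 of them within a short run that includes the palindrome CACGTG. The Ankrd37 stretch (chr8:45999986-46000100, minus strand) holds 3, 2 of which overlap, and it lies inside the Ankrd37 gene body as annotated in GENCODE M21. The Fam162a stretch (chr16:36071595-36071654, minus strand) holds 4 close together, shortly before the start. Ddit4 (chr10:59951869-59951969, minus strand) has 2 matches far apart, and Ier3 (chr17:35821499-35821527, plus strand) and Mgarp (chr3:51396750-51396778, minus strand) have 1 each. A match is only a match of letters, and no binding was measured here. All 10 genes are annotated as protein-coding in GENCODE M21, on the GRCm38 build. On the plus strand lie Ndufa4l2 (chr10:127514967-127517154), Ier3 (chr17:35821684-35822923), Bhlhe40 (chr6:108660629-108666925) and Hilpda (chr6:29272488-29275446). On the minus strand lie Bnip3 (chr7:138890836-138909519), Ddit4 (chr10:59949669-59951834), Ankrd37 (chr8:45996902-46005707), Ndrg1 (chr15:66929318-66969640), Mgarp (chr3:51388412-51396738) and Fam162a (chr16:36043761-36071594). The bodies of 6 of them overlap another annotated gene on the opposite strand: Ndufa4l2 overlaps Shmt2, Bnip3 overlaps Gm45507 and the processed pseudogene Gm18258, Ankrd37 overlaps Ufsp2 and Lrp2bp, Ndrg1 overlaps Gm17035 and Gm2895, Bhlhe40 overlaps 0610040F04Rik, and Fam162a overlaps Wdr5b. Whether the counting used strand is not stated in the sources used here, so reads of these partners could not be told apart.

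The first group encodes mitochondrial proteins. Ndufa4l2, whose protein dampens respiratory complex I, measured 45.1 to 109 CPM in the 6 E9.5 mutants (median 86.4) and 4.19 to 14.9 CPM in the 6 controls (median 8.64). The highest control is Bar6, from 2 UMIs, and the next had 11.3 CPM. Every mutant thus lay above every control. At E8.5 it stood at 63.3 CPM in the mutant and at 10.3 and 4.96 CPM in the controls. The E8.0 mutants had 19.4, 26.9 and 29 CPM and the controls 9.35, 16 and 18.3 CPM. The E8.0 ranges were already apart, by a narrow margin, and the mean mutant level was higher at each later stage while the control mean was lower than at E8.0.

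Bnip3, an outer membrane protein that marks mitochondria for removal, measured 72.3 to 125 CPM in E9.5 mutants (median 106) and 22.2 to 74.4 CPM in controls (median 25.9). The highest control value is that of the 6-cell sample Bar6, from 10 UMIs; the next highest control had 30.7 CPM. At E8.5 Bnip3 was 88.5 CPM in the mutant against 25.2 and 21.6 CPM. The E8.0 mutants (27.4, 37 and 38.6 CPM) and controls (16.3, 26.7 and 31.8 CPM) overlapped.

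Mgarp, a protein tied to mitochondrial transport, measured 24.5 to 44 CPM in E9.5 mutants (median 42.3) and 0 to 11.7 CPM in controls (median 10.1). The 0 is that of Bar6, where 3 UMIs would be 22.3 CPM. Of the 6 mutants, 5 lay close together, between 39.4 and 44 CPM, and Bar20 alone was lower. At E8.5 the mutant had 42.4 CPM and the controls 12.6 and 11.9 CPM. At E8.0 the mutants had 18.3, 20.2 and 22.2 CPM and the controls 14.5, 14.9 and 17.9 CPM, again without overlap.

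Fam162a, a mitochondrial protein linked to cell death in low oxygen, gave the most UMIs of the 10 genes in every group. It measured 489 to 871 CPM in E9.5 mutants (median 705) and 289 to 498 CPM in controls (median 307), where Bar6 was again the highest and overlapped the lowest mutant; the next control had 394 CPM. At E8.5 it was 686 CPM in the mutant and 347 and 333 CPM in the controls. The E8.0 values were 313, 351 and 392 CPM in mutants and 271, 306 and 328 CPM in controls, again with overlap.

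The next group acts on growth and survival under stress. Ddit4, an inhibitor of the growth kinase mTORC1, measured 122 to 209 CPM in E9.5 mutants (median 183) and 13.8 to 141 CPM in controls (median 17.9). The value of 141 CPM is that of Bar6, from 19 UMIs, and the next highest control had 18.6 CPM. At E8.5 Ddit4 was 71.2 CPM in the mutant against 12.6 and 11.1 CPM. At E8.0 mutants (19.3, 24.6 and 38.4 CPM) and controls (8.72, 18.3 and 25.8 CPM) overlapped broadly.

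Ier3, an early response gene of cell survival, measured 38.1 to 70.1 CPM in E9.5 mutants (median 54.4) and 0 to 7.54 CPM in controls (median 5.65). At E8.5 it was 25.4 CPM in the mutant against 2.29 and 5.11 CPM, and at E8.0 it was 8.48, 11.1 and 17.4 CPM in mutants against 4.14, 10.1 and 11.7 CPM. Ndrg1, a stress-responsive cytoplasmic protein, measured 26.7 to 71.3 CPM in E9.5 mutants (median 42.1) and 0 to 6.99 CPM in controls (median 4.39). Both genes were at 0 in Bar6, where 3 UMIs would be 22.3 CPM; the next lowest controls had 4.46 CPM of Ier3 and 2.51 CPM of Ndrg1. Both were well apart between genotypes at E9.5. At E8.5 Ndrg1 was 18.6 CPM in the mutant against 5.73 and 3.9 CPM. Its E8.0 values were 6.18, 7.54 and 9.13 CPM in mutants and 4.41, 5.29 and 7 CPM in controls. At E8.0 both genes overlapped between genotypes, and at E8.5 neither did.

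The remaining genes act on transcription and lipid storage, or have no settled role. Bhlhe40, a repressor of transcription, measured 12.3 to 23.8 CPM in E9.5 mutants (median 16.7) and 0.838 to 7.44 CPM in controls (median 1.48). Both ends of that control range lie under the level of 3 UMIs: the highest is Bar6 with 1 UMI, followed by 1.68 CPM, and the lowest is Bar7 with 2 UMIs. The gene rests on few molecules throughout, with 20 and 23 UMIs in the E9.5 mutants Bar5 and Bar8. The E8.5 values come from 50 UMIs in the mutant (4.77 CPM) and from 0 and 50 UMIs in the controls (0 and 0.816 CPM). In the sample at 0, 3 UMIs would be 3.44 CPM. At E8.0 the mutants had 0.998, 1.29 and 2.09 CPM and the controls 0.5, 0.989 and 1.63 CPM, all near the bottom of the scale. Ankrd37, an ankyrin repeat protein known as a HIF-1 target, measured 49.4 to 112 CPM in E9.5 mutants (median 81.7) and 14.7 to 66.9 CPM in controls (median 17.5). Without Bar6 the controls ended at 21.1 CPM. At E8.5 it was 60.4 CPM in the mutant and 13.7 and 17.9 CPM in the controls, and at E8.0 the mutants (17.7, 20.8 and 25.3 CPM) and controls (16.1, 17.6 and 20.3 CPM) overlapped.

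Hilpda, a lipid droplet protein that slows fat breakdown, had the smallest ratio of mutant to control mean at E8.5 and E9.5. It measured 34.5 to 64 CPM in E9.5 mutants (median 43.7) and 17.2 to 34.4 CPM in controls (median 28.6), so that the lowest mutant and the highest control, both of run 2, nearly met. At E8.5 it was 50 CPM in the mutant against 32.1 and 31.6 CPM. The E8.0 values, 29.8, 35.8 and 41.3 CPM in mutants and 26.1, 31.4 and 32.6 CPM in controls, overlapped.

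**Figure D1:**
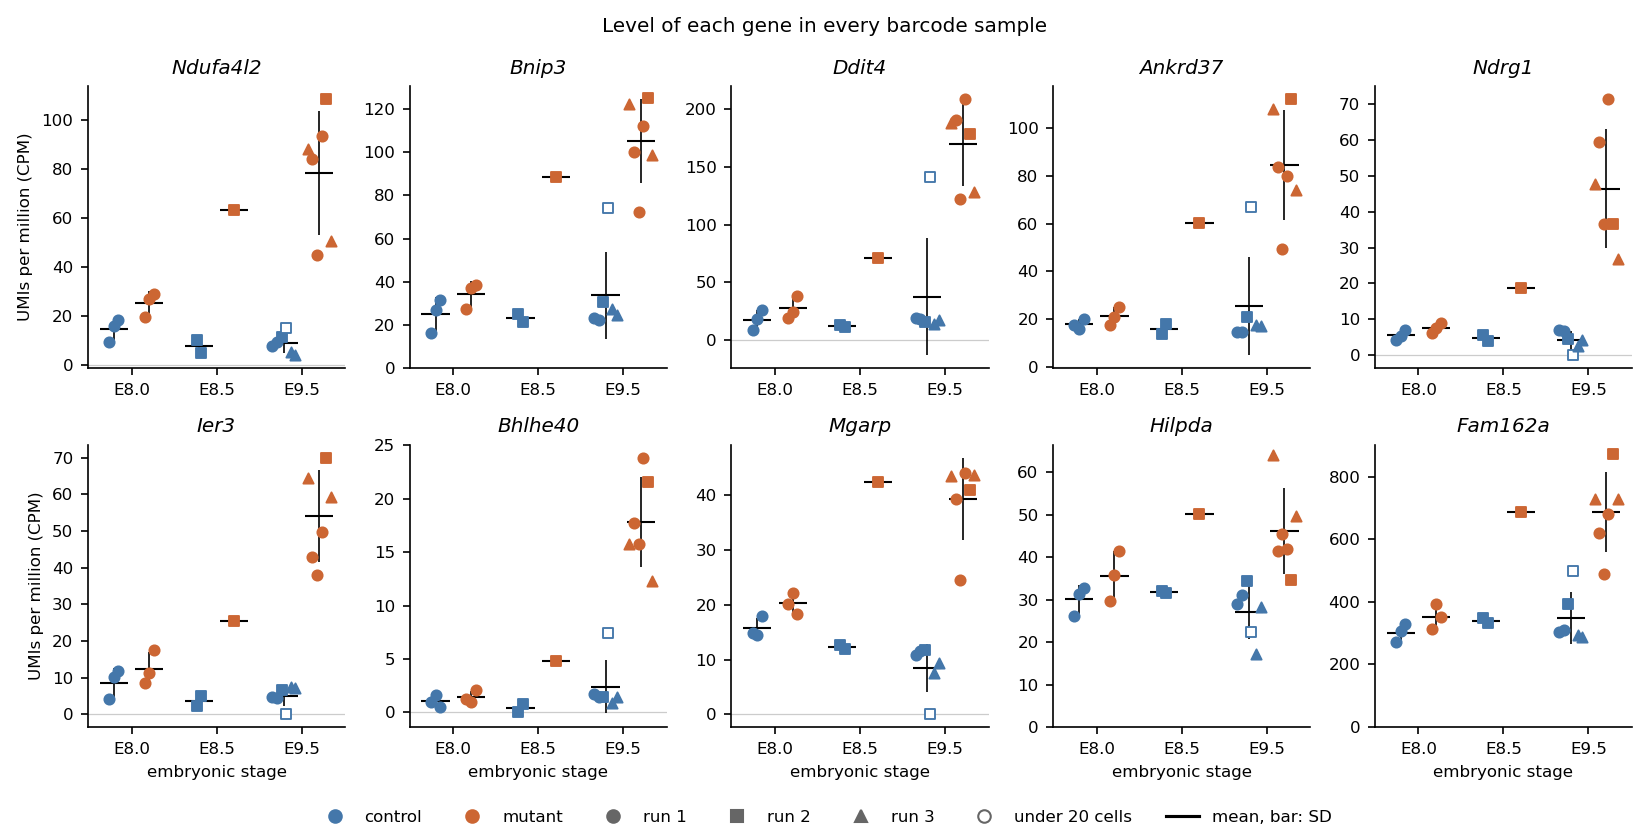
Level of each gene in CPM (vertical axis, linear, 1 scale per gene) in every barcode sample at E8.0, E8.5 and E9.5; symbols mark the run, open symbols samples of under 20 cells, and lines the mean with its SD. Mutants lie above controls at E8.5 and E9.5 for each gene once the open symbol (Bar6, 6 cells) is set aside, while at E8.0 the groups overlap for 8 of the 10.

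At E9.5, the stage on which the genes were chosen, the mutant mean was above the control mean for all 10, by 1.71-fold (Hilpda) to 11.1-fold (Ndrg1). Without Bar6 the ratios ran from 1.65 (Hilpda) to 12.9 (Bhlhe40, 7.45 with it, on 2 to 73 UMIs per control); Ndrg1 was then at 9.23, and Ddit4 at 10.1 against 4.52 with it. The mutant and control samples did not overlap for 6 of the 10, against 2.03% of all genes tested in which every mutant lay above every control. In the samples of at least 20 cells, which leave out Bar6, they did not overlap for any of the 10, against 2.65% of all genes in the same samples. There Ddit4 measured 169 ± 35.6 CPM (SD, n = 6) in mutants and 16.7 ± 2.04 CPM (n = 5) in controls. Within each of the 3 runs the mutants lay above the controls for all 10 genes, as did 19.3% of all genes in run 1, 27.9% in run 2 and 31.5% in run 3. In a joint edgeR model of the 21 samples, the log2 fold changes ran from 0.66 (SE 0.13, Hilpda) to 3.56 (SE 0.25, Bhlhe40), with a median of 2.68 against 0.01 over all genes. By this estimate the 10 genes held ranks 25 to 1813 of 20672. In this contrast 4.84% of all genes were called higher and 5.8% lower at an adjusted p under 0.05, which is given for scale only since the genes were picked here. The sample Bar20 was the lowest of the 6 mutants for 7 of the genes, and Bar5 the highest for 5.

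The genes were chosen with earlier results of these data known, by a rule that used the E9.5 samples and not those of E8.5. There all 10 were higher in the mutant, and 7 passed the test (adjusted p under 0.05, edgeR's quasi-likelihood test with Benjamini-Hochberg adjustment over all genes), against 0.135% of all genes called higher at this stage (28 of 20672). The median log2 fold change was 1.95, against -0.01 over all genes. The tests here and below take their spread from the joint fit of 21 samples, the E9.5 samples included. Their p-values are thus not free of the values that chose the genes. The 4 mitochondrial genes all rose: Ndufa4l2 by 3.39 (SE 0.45, adjusted p = 0.00282), Bnip3 by 1.86 (SE 0.31, adjusted p = 0.016), Mgarp by 1.67 (SE 0.29, adjusted p = 0.0175) and Fam162a by 0.96 (SE 0.18, adjusted p = 0.0297). Ankrd37 (1.67, SE 0.31), Ndrg1 (2.04, SE 0.39) and Ier3 (2.21, SE 0.43) also rose, with adjusted p of 0.0263, 0.0293 and 0.0307. Ddit4 (2.51, SE 0.55) and Bhlhe40 (2.41, SE 0.52) had the largest estimates after Ndufa4l2, with larger errors, and missed the threshold, with adjusted p of 0.0617 and 0.0558. Hilpda was at 0.53 (SE 0.25, adjusted p = 0.682).

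Only 1 mutant sample stands behind the E8.5 values, and its spread was taken from the other groups, which assumes that it varies like them. Of the 2 controls, Bar2 held only 34 cells and 872892 UMIs. Some of its values rest on few UMIs, with 2 of Ier3, 5 of Ndrg1 and 9 of Ndufa4l2, where 3 UMIs are 3.44 CPM. The calls fell to 1 of 10 (Ndufa4l2) without the run terms or without the control Bar2, and to 0 without the control Bar3, while all 10 estimates stayed above 0. The shares of all genes called in those fits are not given here. Markers of other cell types moved with the E8.5 mutant. It lay above both controls in the summed level of 6 endothelial markers (109 CPM against 39.8 and 85.9 CPM, 3 of 6 markers). It lay above them for 6 endoderm or epithelium markers (19.9 against 7.37 and 10.3 CPM, 5 of 6, with Sox17 alone at 10.6 CPM and Cdh1 on 2 UMIs). It lay above them for 4 neural crest markers (52.5 against 32.4 and 43.5 CPM, 3 of 4, with Foxd3 at 0 and Ets1 alone at 50 CPM). It also lay above them for 5 neural markers (17.2 against 5.73 and 14.5 CPM, 2 of 5), below them for 5 megakaryocyte or myeloid markers (4.68 against 8.02 and 116 CPM, none of 5 higher, with Ppbp at 0) and between them for the 6 red cell markers. Its median cell held 20908 UMIs against 24084.5 and 25886 in the controls, and at E9.5 too the median was lower in each mutant than in the controls of its run. The mitochondrial share of UMIs was 1.23% in the E8.5 mutant against 1.33% and 1.41%, and at E9.5 it was 1.84% to 2.16% against 2.53% and 2.61% in run 1 and 0.862% against 0.888% and 1.41% in run 2, with overlap between genotypes in run 3. The part of these in the bulk values was not tested. No overlap between the 1 mutant and the 2 controls was seen for any of the 10, but 43.6% of all genes had the mutant above both controls.

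At E8.0, with 3 samples of each genotype, all 10 estimates were also above 0, from 0.14 (SE 0.12, Fam162a) to 0.69 (SE 0.27, Ndufa4l2), with a median of 0.36 against 0.01 over all genes. None passed the test, and 0% of all genes were called higher at this stage. The adjusted p in edgeR ran from 0.766 to 0.934, and DESeq2 called none either. Ndufa4l2 alone had an unadjusted p under 0.05. On simulated data of this design with 200 changed genes, the same test recovered 80% of genes changed by 1 and 98% of genes changed by 2 on the log2 scale. It also called 16 genes that were not changed. With so many changed genes the adjustment is milder than where 0% are called, so these shares do not apply to the 10 genes. Mutants and controls did not overlap for Ndufa4l2 and Mgarp, 2 of 10 genes, against 11.4% of all genes. The sample Bar28 was the highest mutant for 8 genes, and the control Bar29 the highest control for 9. Without the control Bar29 the Bhlhe40 estimate was -0.022, and without the control Bar26 it was 0.94. Genotype and sex moved together at this stage: when the share of male cells entered the model, the median was 0.08 and Ankrd37 was at -0.16. The part of sex in these values cannot be told apart from that of genotype. As these are sums over sorted cells, fewer cells with high levels and less RNA per cell cannot be told apart in them.

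**Figure D2:**
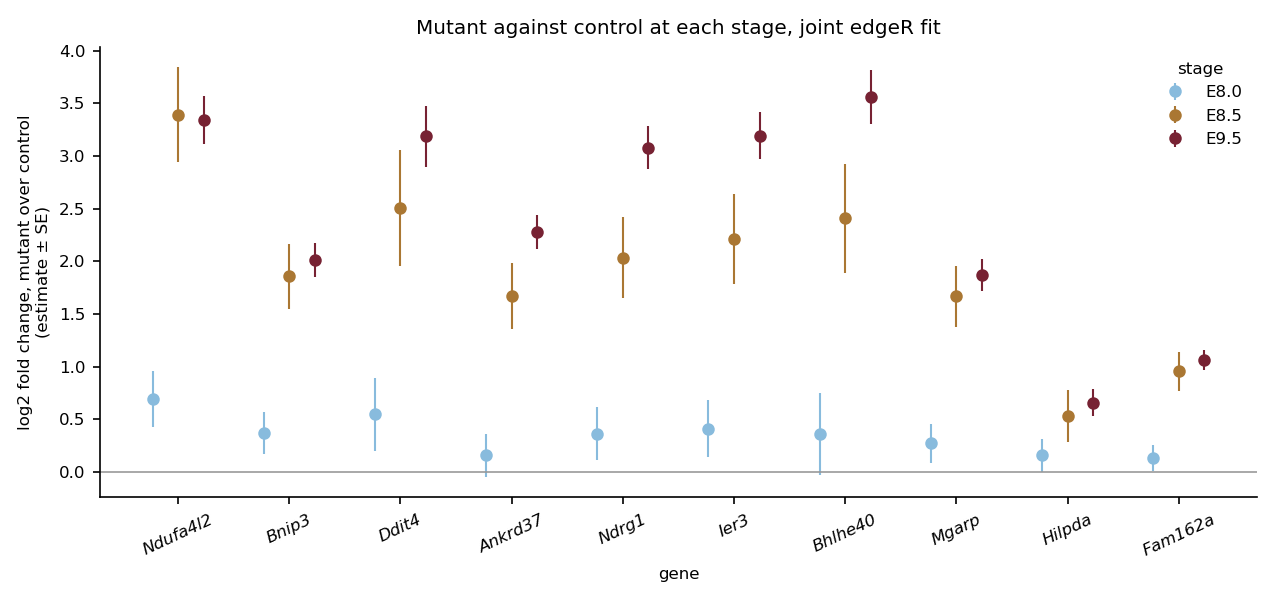
Log2 fold change of mutant over control (vertical axis, estimate with its SE from the joint edgeR fit) for each gene at E8.0 (3 against 3 samples), E8.5 (1 against 2) and E9.5 (6 against 6, the stage that chose the genes). Values near 0 to 0.69 at E8.0 stand beside 0.53 to 3.39 at E8.5.

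The genotype difference was larger at E8.5 than at E8.0 in the estimate for all 10 genes, by 0.38 (Hilpda) to 2.70 (Ndufa4l2) on the log2 scale, with a median of 1.59. The test of that difference itself called none of the 10, and 0% of all genes higher. The smallest adjusted p was 0.143 (Ndufa4l2), 9 of 10 had an unadjusted p under 0.05, and DESeq2 called 1 (Ndufa4l2, adjusted p = 0.0441). Without the low-count filter 7 of the 10 were called. The shares of all genes with such an unadjusted p, or called in these alternative fits, are not given here, so these counts have no base to be read against. E8.0 and E8.5 also lie in different runs. A genotype difference that changes with stage cannot be told apart here from one that changes with run.

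In controls alone, 9 of the 10 estimates were lower at E8.5 than at E8.0, with a median of -0.71 against 0.04 over all genes. Ndufa4l2 alone passed the test, and fell by 2.07 (SE 0.48, adjusted p = 0.041), against 0.164% of all genes called lower. Stage and run are joined in this contrast and are bridged only by the E9.5 samples. Without the run terms 6 of 10 were lower, the median was -0.20 and Ndufa4l2 was no longer called (-1.17, adjusted p = 0.162). It was also not called without the samples of under 20 cells (adjusted p = 0.0503), or without Bar26 (0.0571), Bar29 (0.0728) or Bar3 (0.759).

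The genes were then set beside other genes of the same pathway, from lists chosen for this comparison with earlier results of these data known. The counts of called list genes are thus a description. Of 9 oxygen-sensing factors, none was called at E8.0 or E8.5. The hydroxylase genes Egln3 and Egln1, themselves HIF targets that mark HIF for destruction, had the largest estimates at E8.5, 1.88 (SE 0.40, adjusted p = 0.055) and 1.09 (SE 0.24, adjusted p = 0.0608). The E9.5 values of both, 2.50 and 1.39, passed. Hif1a, whose protein they mark, was at 0.15 (SE 0.20) at E8.5 and -0.18 (SE 0.10) at E9.5, and did not pass at either stage. In all, 3 of the 9 were called higher (Egln3, Egln1 and Epas1) and 1 lower (Egln2) at E9.5, against 4.84% and 5.8% of all genes.

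Of 20 genes of glucose uptake and glycolysis, 18 were called higher at E9.5, 1 at E8.5 (Pfkp, 2.01, SE 0.39, adjusted p = 0.0307) and none at E8.0. Over all genes these shares were 4.84%, 0.135% and 0%. All 20 estimates were above 0 at E8.5, with a median of 0.71, and 9 of 20 at E8.0, with a median of -0.02. Aldoc, an aldolase, had the largest E8.5 estimate (2.20, SE 0.46, adjusted p = 0.054), followed after Pfkp by the glucose transporter Slc2a3 (1.43, SE 0.38) and the glycolytic regulator Pfkfb3 (1.35, SE 0.35), with adjusted p of 0.152 and 0.13. Of 24 tested genes known to respond to hypoxia outside these groups, 21 were called higher at E9.5, 2 at E8.5 and none at E8.0, against the same shares of all genes. The 2 were Nrn1, a secreted neural growth factor (4.10, SE 0.68, adjusted p = 0.016), and Ppp1r3c, which directs glycogen synthesis (3.03, SE 0.48, adjusted p = 0.0125). Stc2 and Tmem45a came next, at 1.36 (SE 0.58) and 1.34 (SE 0.44), and did not pass.

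Lists for other stress responses were read in the same way. None of 10 immediate early genes, 7 heat shock genes, 9 genes of the integrated stress response and 8 p53 targets was called at E8.0 or E8.5. Their medians at E8.5 were -0.13, -0.22, -0.24 and -0.12. At E8.0 their medians were -0.01, -0.19, -0.29 and 0.35. The last of these, for the p53 targets, was close to the 0.36 of the 10 genes at E8.0. The E8.5 median of 1.95 for the 10 genes is not a like value, since these were picked for their rise at E9.5. The lists of oxygen-sensing factors, glycolysis and other hypoxia-responsive genes had E8.5 medians of 0.15, 0.71 and 0.65. The heat shock gene Hspb1 stood apart from its list's median, at 2.11 (SE 0.54, adjusted p = 0.13) at E8.5 and 1.02 (SE 0.39) at E8.0, and did not pass. At E9.5, where 4.84% of all genes were called higher and 5.8% lower, the calls were 1 of 10 higher among immediate early genes (Atf3), 2 of 7 higher and 2 lower among heat shock genes, 3 of 9 higher in the integrated stress response and 0 of 8 among p53 targets. The 2 heat shock genes that rose, Hspa1a and Hspa1b, did so by 4.73 (SE 0.61) and 3.84 (SE 0.55), while Hsph1 and Hsp90aa1 fell. Chac1, a target of the integrated stress response, rose by 4.63 (SE 0.49), more than any of the 10 genes.

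In single cells, each cell was thinned to 5000 UMIs, so that depth did not set the counts, and the UMIs of the 10 genes were summed. The sum averaged 7.41 ± 1.60 UMIs per cell in E9.5 mutants (SD over 6 samples) and 2.26 ± 0.31 in controls (5 samples of at least 20 cells). At E8.5 it averaged 6.10 in the mutant and 2.22 ± 0.10 in the 2 controls, and at E8.0 2.79 ± 0.42 in mutants and 2.23 ± 0.30 in controls (3 samples each). Without thinning the E9.5 means were 21.4 and 8.75. At E8.0 the samples overlapped, with 2.31 to 3.05 UMIs in mutants and 1.90 to 2.49 in controls, and the 1 mutant sample of E8.5 has no SD of its own.

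Many but not all mutant cells had high sums. The share of cells above the 95th percentile of control cells of the same run and stage was 30% to 55.2% in the 6 E9.5 mutants and 2.47% to 3.58% in the controls. It was 38.6% in the E8.5 mutant, against 3.39% and 6.06% in its controls, the latter being 2 of 33 cells of Bar2. Thinned to 2000 UMIs the share in the E8.5 mutant was 25%, against 2.44% and 14.7%. At E8.0 it was 3.32%, 7.99% and 8.57% in mutants and 0.817%, 5.11% and 5.54% in controls. At the other end, 19.8% to 34.3% of E9.5 mutant cells lay at or below the control median, and 7.36% ± 1.99 held no UMI of the 10 genes, against 18.4% ± 3.23 of control cells. Since Fam162a gives most of the UMIs, the count was repeated, after seeing the data, without it: 49.1% ± 8.02 of E9.5 mutant cells and 3.72% ± 1.42 of control cells then lay above the line.

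Single genes were found in more mutant cells at the same depth. At E9.5 Ddit4 had a UMI in 44.7% ± 8.37 of mutant cells and 8.23% ± 0.87 of control cells, and Bnip3 in 39.2% ± 5.64 and 11.7% ± 1.87. Ndufa4l2 had one in 25.1% ± 4.95 and 3.04% ± 1.53, and Bhlhe40 in 9.40% ± 2.32 and 0.688% ± 0.165. Hilpda had one in 22% ± 3.19 and 13% ± 3.58, and Fam162a, the most often found, in 85.7% ± 3.27 and 72.5% ± 3.59. A UMI of at least 5 of the 10 genes was found in 24.7% ± 6.98 of mutant cells and 0.378% ± 0.246 of control cells. These shares include any free RNA taken up in the droplets, whose part was not tested. In primitive red cells of the mutants Bnip3 was at 20.1 ± 5.99 CPM (n = 4 samples), against 105 CPM over all mutant cells. The many globin UMIs of red cells lower the CPM of other genes in them, so the 2 values are not alike. Across cells of 1 sample, pairs of the genes were only weakly correlated: the median of 45 pairs, each averaged over the samples of at least 100 cells, was a Spearman rho of 0.13 in E9.5 mutants and 0.03 in controls, and the highest was 0.33, for Ddit4 and Ankrd37. In counts this sparse such values are a description only.

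**Figure D3:**
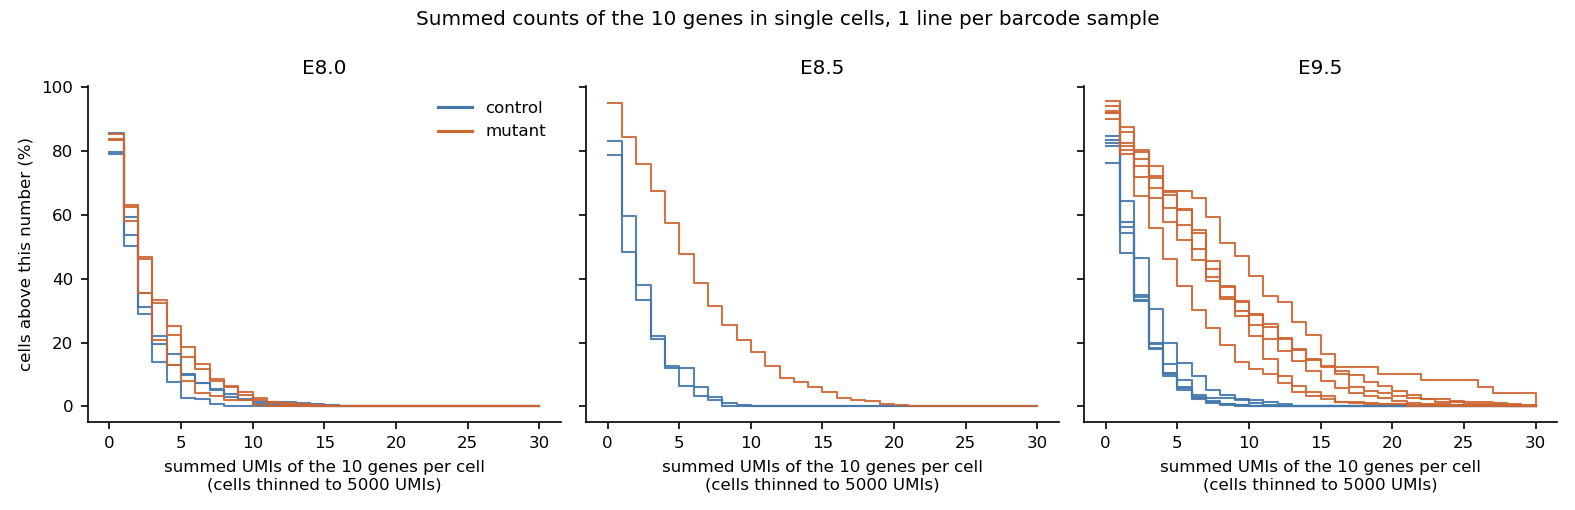
Share of cells (vertical axis, percent) with more than a given summed UMI count of the 10 genes (horizontal axis, cells thinned to 5000 UMIs), 1 line per barcode sample of at least 20 cells. Mutant lines separate from control lines at E8.5 and E9.5 and lie close to them at E8.0; the E9.5 mutant line nearest the controls over most of the axis is Bar20, with 30% of its cells above the control 95th percentile.

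Cells were then grouped by lineage markers. A cell counted as positive with at least 2 UMIs of at least 3 markers of a class, or at least 5 UMIs of at least 5 of 6 markers for cardiomyocytes and primitive red cells; this rule was set after the marker counts were seen. Of 14777 cells, 6034 were positive for no class and 836 for more than 1. At E9.5 the share of cells above the control 95th percentile in mutants averaged 67.9% among cardiomyocyte-positive cells (5 samples, 52% to 82.8%) and 68.6% among cells positive for anterior second heart field markers (2 samples). It was 62.6% in the posterior second heart field class (3 samples, 35.5% to 77.3%), 56.7% in the endothelial class (1 sample), 50.4% in cranial mesenchyme and 46.8% in paraxial mesoderm (3 samples each). The control averages of these classes lay between 0% and 12.2%.

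Among lateral plate or allantois cells the 2 mutant samples were far apart, with 2.78% in Bar20 and 39.5% in Bar19, against 3.95% to 9.38% in 3 controls. Within Bar19 that share was below those of 6 other groups of cells, 56.1% to 77.3%, and above those of paraxial (35.3%) and red cells (1.10%). Primitive red cells were low in every mutant sample with enough of them: they averaged 0.991% in 4 mutant samples (0% to 1.55%) and 0.0758% in 5 controls, and no red cell of the E8.5 mutant passed the line. The line was set on control cells of all kinds. Red cells spend many of their UMIs on globin, which leaves fewer for other genes at a fixed depth. The 6 red cell markers took 47504 to 228221 CPM of the whole E9.5 mutant samples. The part of this in the low shares was not tested. Wls was low in red cells of both genotypes, between 0 and 1.97 CPM in the mutant samples and between 2.81 and 6.29 CPM in the controls. At E8.5, with 1 sample of each genotype, the share above the line was 63.9% in mutant and 4% in control cells of the posterior second heart field class, 54% and 11% in cardiomyocytes, 50% and 8.82% in endothelial cells (22 mutant cells) and 37.7% and 1.86% in paraxial mesoderm. Cranial mesenchyme was lower in the mutant than these, at 14% (43 cells) against 1.98% in the control, with 8 of 10 genes higher and a median ratio of 1.91. Among cells positive for no class the shares were 42.5% and 4.66%. The differences between classes were not tested, and the class averages come from different sets of samples.

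**Figure D4:**
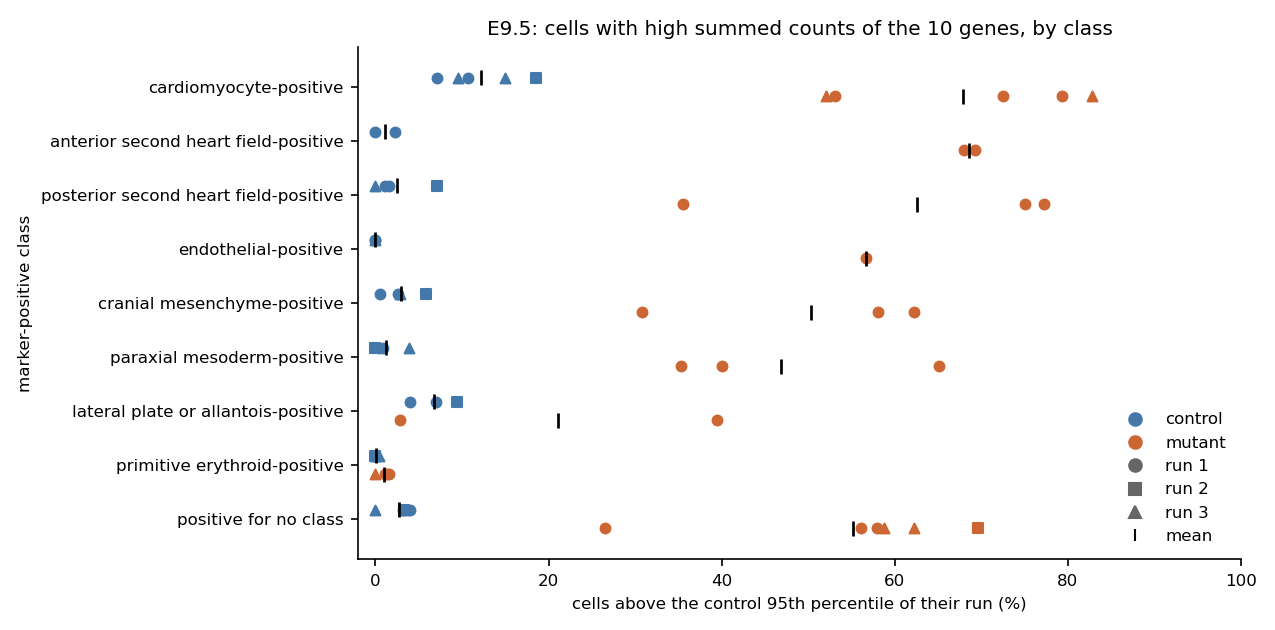
Share of E9.5 cells (horizontal axis, percent) whose summed UMIs of the 10 genes lie above the 95th percentile of control cells of their run, for cells positive for each marker class (vertical axis), 1 symbol per barcode sample with at least 20 such cells and a bar at the mean. Mutant samples sit at 26.5% to 82.8% in 7 of the 9 groups, and at 0% to 1.55% among primitive red cells.

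By level, the median of the 10 ratios of mutant over control at E9.5 was 7.64 in paraxial mesoderm, 7.58 in posterior second heart field, 5.89 in cranial mesenchyme, 5.58 in endothelial, 5.37 in anterior second heart field and 3.86 in cardiomyocyte-positive cells. It was 2.32 in primitive red cells and 1.72 in lateral plate or allantois cells, where it was 0.968 without the mutant Bar19. All 10 genes had the higher mean in mutants in each of the 6 former classes, 9 of 10 in red cells and 8 of 10 in lateral plate or allantois cells. Cardiomyocyte-positive control cells had the highest mean of Bnip3 among control classes, 82.1 ± 31 CPM (n = 5), and mutants reached 224 ± 47.6 CPM (n = 5). In posterior second heart field cells Ddit4 was 425 ± 188 CPM in mutants (n = 3) and 25.8 ± 7.23 CPM in controls (n = 4). In red cells Fam162a overlapped between genotypes, with 156 ± 22.8 CPM (n = 4) against 144 ± 17.9 CPM (n = 5), and Hilpda had the lower mean in mutants, at 7.80 ± 2.68 CPM against 12.4 ± 2.89 CPM. In lateral plate or allantois cells Mgarp was equal within its spread, 27.4 ± 11.1 CPM (n = 2) in mutants against 27.4 ± 4.76 CPM (n = 3) in controls. Wls in the same cells was at 8.93 ± 4.31 CPM in mutants against 84.2 ± 4.04 CPM in controls.

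The genes with the most similar pattern over the 21 samples of at least 20 cells (the E7.5 sample included), by Pearson's r of log2(CPM + 1) with the mean of the 10 among 10266 genes of at least 5 CPM, were Pfkfb3 (r = 0.982), Gm15283 (0.972, an antisense gene that overlaps Hif1a), P4ha1 (0.967), Tpi1 (0.963) and Tcf25 (0.961). All 21 samples share the genotype and stage groups, so these values describe a shared pattern of groups. Pfkfb3 measured 24.8 ± 5.25 CPM in E9.5 mutants and 6.41 ± 1.80 CPM in controls. P4ha1, a collagen prolyl hydroxylase, measured 167 ± 41.8 CPM and 55.4 ± 7.26 CPM, and Tpi1, a glycolytic enzyme, 1171 ± 115 CPM and 727 ± 85.9 CPM. Tcf25 differed least, with 177 ± 10.7 CPM against 129 ± 10.8 CPM. Among the 10 themselves, r with the mean that includes them ran from 0.821 (Hilpda) and 0.871 (Mgarp) to 0.991 (Ddit4).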

How the data were processed

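The authors deposited raw UMI counts, 51923 genes by 14777 cells, with a table of run, barcode, stage and genotype per cell. Per the labels, mapping used kallisto and bustools, and the submitters' processing notes name GRCm38, bustools 0.46.1 and Cell Ranger. Annotation release, strand use and cell filters are not given in the sources used here. Doublets were not called; cells positive for several classes were kept in each.

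The 10 genes, the lists and the comparisons were chosen with earlier results of these data known. Named are all 10 genes, up to 4 genes per list by their E8.5 fold change, the called genes of a list, and the 5 genes most like the 10. Counts were summed per barcode sample, which may hold technical as well as biological spread, and 21 samples were fitted together in edgeR 4.0.16 (R 4.3.3): filterByExpr, TMM factors, quasi-likelihood test, groups of stage by genotype plus run terms, with Benjamini-Hochberg adjustment at 0.05. No p is given for the genes at E9.5. CPM is the count scaled to the sample's total. Cells were thinned to 5000 UMIs with a fixed seed; 240 control and 49 mutant cells at E8.5, and 122 and 33 at E9.5, were shallower and left out. Classes were read in samples of at least 20 such cells. On simulated counts with 200 changed genes the test recovered, for log2 changes of 1 and of 2, 31% and 82% at E8.5, 30% and 73% for the difference between stages and 29% and 83% for the controls. These shares hold for that number of changed genes only. The unchanged genes called in these 3 simulations numbered 6, 14 and 9. Alternatives were DESeq2 1.42.0, its size factors, no low-count filter, no run terms, only the stages compared, samples of at least 20 cells, no red cells, the male share as covariate, and each sample left out in turn. Other steps ran in Python 3.11.15.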

Additional observations from a re-analysis of the deposited data

Results flagged for a closer look

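In 6 of 20 groups of 6 E9.5 samples, 1 sample lay far from the other 5. For 1 group taken alone, chance gives about 1 in 20. The groups are the 10 genes read in the same samples, and most flags fall on 1 small sample, so the count cannot be set against that rate. The control Bar6, of 6 cells, was the highest control for Ddit4 (141 CPM from 19 UMIs, next 18.6 CPM), Bnip3 (74.4 CPM from 10 UMIs, next 30.7 CPM), Ankrd37 (66.9 CPM from 9 UMIs, next 21.1 CPM) and Bhlhe40 (7.44 CPM from 1 UMI, next 1.68 CPM). It was the lowest for Mgarp, at 0 CPM, next 7.54 CPM, though 3 UMIs in Bar6 would be 22.3 CPM. Among mutants, Bar20 was the lowest for Mgarp, at 24.5 CPM from 375 UMIs, with the next at 39.4 CPM.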

How the results depend on the processing

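Of 149 values recomputed for the summary results, 127 stayed the same. For numbers of called genes this means an equal or similar number, 0 against 0 included. For other values it means a change within the spread between samples. The 10 genes were called in 0 cases at E8.0 under every alternative, and at E8.5 in 8 or 9 under 7 of them, in 1 without the run terms and in 0 to 1 when a control was left out; leaving out the only mutant gives no value. The difference between E8.5 and E8.0 was called for 1 gene with DESeq2 and 7 without the low-count filter. In controls, E8.5 against E8.0 gave 2 calls without the low-count filter or without red cells, 0 without the run terms or without samples of under 20 cells, and 0 to 2 when a sample was left out. The shares of all genes called under each alternative are not given here, and the cause of these moves was not tested. The E9.5 median ran from 2.59 to 2.80 with a sample left out. Thinned to 2000 UMIs, 31.5% of E9.5 mutant cells lay above the control 95th percentile. The class medians moved to 5.67 for cardiomyocytes (at least 50 cells), to 6.67 for anterior second heart field (at least 10 cells), and for endothelial cells to 4.59 (at least 10 cells), 6.69 (1 more marker) and 4.94 to 6.22 with a control left out; for lateral plate or allantois cells the range was 0.968 to 2.66. Of the single genes, Ankrd37 at E8.0 was -0.16 with the male share as covariate and Bhlhe40 at E8.0 ran from -0.022 (without the control Bar29) to 0.94 (without the control Bar26). No paired analysis was possible because the barcode samples carry no replicate numbers shared between genotypes. Depth limits the samples of few cells and Bhlhe40.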
